A study of Homo sapiens with 4 samples.

Results

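The upper part of glycolysis turns glucose 6-phosphate into triose phosphates, and 7 of its genes were examined here: *GPI*, the phosphofructokinase genes *PFKL*, *PFKM* and *PFKP*, the aldolase genes *ALDOA* and *ALDOC*, and *TPI1*. They were taken by gene name out of 58243 genes in the expression tables. All 7 were found, together with the HIF1α peaks that lie in these genes or within 10 kb of them, 8 of 1689 peaks in ChIP-seq replicate 1 and 22 of 16953 in replicate 2. The study activated HIF in HK2 cells, an immortalized human renal proximal tubular line, with FG-4592, which inhibits the hydroxylases that lead to the breakdown of HIFα. In all 4 samples, 2 HIF1α ChIP-seq replicates and 2 RNA-seq libraries, the HK2 cells had received FG-4592 at 50 μM, for 6 h by the study's methods. No untreated library was analysed here, and every value is therefore a level or a position under FG-4592, with no fold change and no test between conditions. The labels do not say whether the replicates came from separate cultures, so their spread may be technical. The depth of the RNA-seq libraries, as coverage multiplied by transcript length, was 4442 Mb in replicate 1 and 4202 Mb in replicate 2.

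Glucose-6-phosphate isomerase, the product of *GPI*, makes fructose 6-phosphate, which phosphofructokinase commits to glycolysis by adding a further phosphate. Aldolase splits the product into a pair of triose phosphates, and triose-phosphate isomerase (*TPI1*) interconverts them so that both can go on to pyruvate. Phosphofructokinase and aldolase have isozymes named for the tissues where they were described, liver (*PFKL*), muscle (*PFKM*) and platelet (*PFKP*) for the former, and muscle (*ALDOA*) and brain (*ALDOC*), among others, for the latter. Glycolytic enzymes are among the classical targets of HIF1α, which binds DNA together with ARNT at hypoxia response elements, while proximal tubule cells in the kidney are better known for making glucose than for breaking it down.

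The cells were compared with marker genes of the labelled cell type. Of 8 proximal tubule markers, 2 reached a mean FPKM (fragments per kilobase of transcript, scaled to the mapped fragments of the library) of 1. They were *GGT1*, the most abundant, at 62.3 and 58.5 in replicates 1 and 2, and *SLC5A2*, at 2.59 and 1.70. The endocytic receptor gene *LRP2* and the gluconeogenic gene *FBP1* were listed at 0 in both libraries. This list summed to an FPKM of 65.1 and 60.4. Of 9 markers of the kidney epithelial lineage, 7 reached 1, led by the keratin gene *KRT19*, with sums of 670.0 and 658. *PAX8*, a transcription factor gene of kidney epithelium, stood at 121 and 114. Below 1 were *PAX2*, at 0.287 and 0.359, and the cadherin gene *CDH1*, at 0.211 and 0.379. Most of the listed markers of the kidney epithelial lineage were thus present in these libraries. Most of those of a mature proximal tubule stayed below a mean FPKM of 1. Of 5 mesenchymal markers 2 reached 1, with sums of 1334 and 842, nearly all from *VIM*, which differed between the libraries at 1294 and 802. Muscle markers, fixed because *PFKM* and *ALDOA* are named for muscle, summed to 0.170 and 0.459, with 0 of 4 at 1 or above, *DES* the most abundant, and *MYH7* and *MYH2* listed at 0. Of 3 neural markers, fixed for *ALDOC*, *TUBB3* and *SLC1A3* reached 1, the sums were 51.8 and 55.0, and *GFAP* stood at 0.160 and 0.0115. Of 3 endothelial markers 0 reached 1, with sums of 0.0131 and 0, *CDH5* the most abundant, and *PECAM1* and *KDR* listed at 0. Of 3 leukocyte markers only *CD68* reached 1, at 33.6 and 31.5, which was the whole sum, since *PTPRC* and *CD3E* were listed at 0. In bulk libraries such as these, fewer cells of a type and less RNA per cell cannot be told apart.

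The ChIP-seq replicates stood apart from each other, so results are given for each. Replicate 2 held 10.0 times as many peaks as replicate 1. Of the bases in its peaks on the assembled chromosomes, 85.7% lay in annotated exons, against 33.5% in replicate 1. The core of a hypoxia response element, written here as ACGTG or GCGTG on either strand, was present in 89.3% of replicate 1 peaks and 48.8% of replicate 2 peaks, and within 100 bp of the peak centre in 86.2% and 27.1%. The share of protein-coding genes with a replicate 2 peak over an exon was 10.6% (Wilson 95% interval 9.96 to 11.3) for genes with a mean FPKM below 1 and 76.8% (72.9 to 80.3) for those of 100 or more. A promoter peak in replicate 1, meaning a peak that touches 1 kb on either side of any annotated start site, was found for 0.884% (0.700 to 1.12) and 14.0% (11.2 to 17.4) of the same classes. Both kinds of peak were thus more frequent at genes of higher transcript level, and most genes of the highest class had a replicate 2 peak over an exon. The part of transcript level in the peaks of the genes below was not tested.

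**Figure D1:**
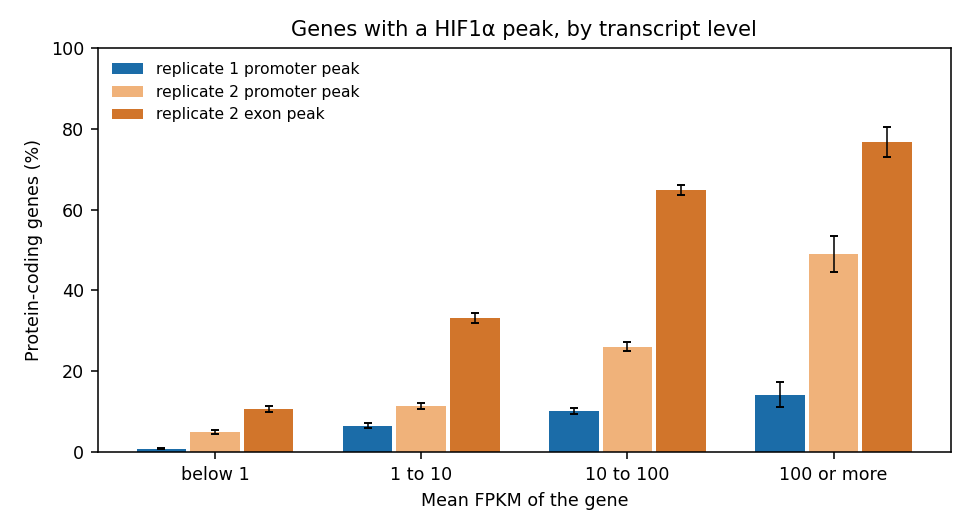
Bars give the share of protein-coding genes (vertical axis, percent) with a HIF1α peak, by class of mean FPKM (horizontal axis), for promoter peaks of each ChIP-seq replicate and for replicate 2 peaks over an exon; error bars are Wilson 95% intervals, which cover counting error only. The share with a replicate 2 exon peak was 10.6% below an FPKM of 1 and 76.8% at 100 or more, while that with a replicate 1 promoter peak was 0.884% and 14.0%.

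The levels of the 7 genes ranged from a mean FPKM of 0.594 for *ALDOC* to 893 for *TPI1*. *TPI1* (ENSG00000111669) led, its FPKM being 909 and 877 in replicates 1 and 2 (mean 893 ± 22.7, SD, n = 2 libraries), rank 26 of all genes. *ALDOA* (ENSG00000149925) followed at 531 and 496 (513 ± 24.7), rank 89. *PFKP* (ENSG00000067057) had 244 and 247 (246 ± 1.76), rank 177. These were the genes above *GPI*, the median of the 7. *GPI* (ENSG00000105220) had 173 and 172 (173 ± 0.310) and *PFKL* (ENSG00000141959) 108 and 107 (108 ± 0.573), ranks 260 and 467. *PFKM* (ENSG00000152556) was lower, at 20.5 and 17.6 (19.1 ± 2.03), rank 3639. *ALDOC* (ENSG00000109107) stood at 0.702 and 0.485 (0.594 ± 0.153), rank 14783, and was the only one of the 7 with a mean FPKM under 1. FPKM is scaled by transcript length, so levels of different genes can be set side by side. The order was the same in both libraries, and for all 6 neighbouring pairs the values of the higher gene lay above those of the lower gene without overlap. With only the transcript of highest mean FPKM of each gene, however, *PFKL* lay above *GPI* in replicate 1, at 72.4 against 60.7, and by the mean, at 72.1 against 67.5, and the order was kept in replicate 2. The closest pair, *PFKP* and *GPI*, differed 1.41-fold in replicate 1 and 1.43-fold in replicate 2. The median FPKM of the 7 genes was 173, against 10.8 over the 11726 protein-coding genes whose mean FPKM was 1 or more.

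**Figure D2:**
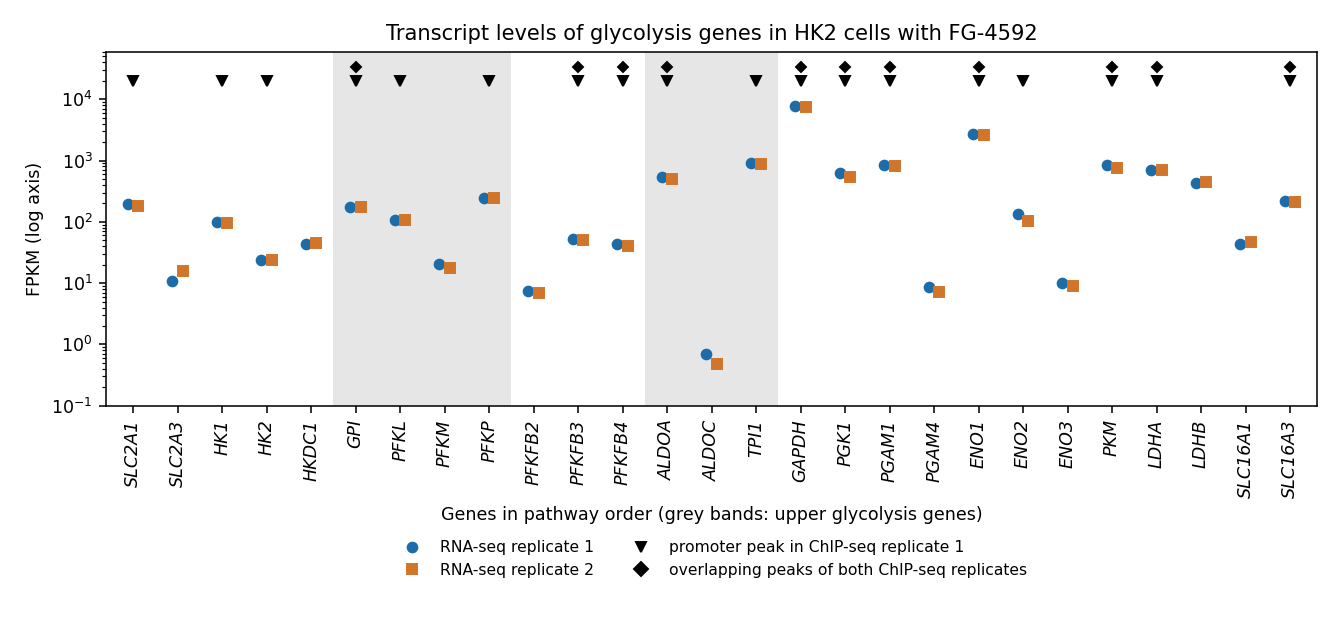
Points give the FPKM (vertical axis, log scale) of each RNA-seq library for the upper glycolysis genes (grey bands) and the 20 other genes of the pathway list whose mean FPKM was 1 or more; triangles mark genes with a promoter peak in ChIP-seq replicate 1 and diamonds genes with overlapping peaks of both replicates. *TPI1* and *ALDOA* lie among the most abundant genes of the pathway, *ALDOC* lies below 1, and *PFKM* and *ALDOC* are the members with no replicate 1 promoter peak.

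Of the aldolase genes *ALDOA* and *ALDOC*, nearly all of the transcript level came from *ALDOA*, the isozyme of muscle and of most other tissues. It made up 99.9% of their summed FPKM in each library. The log2 ratio of *ALDOA* to *ALDOC*, on FPKM with 1 added, was 8.29 in replicate 1 and 8.39 in replicate 2 (8.34 ± 0.0696). This ratio depends on the pseudocount because *ALDOC* is so low: with none added its mean was 9.78.

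The phosphofructokinase genes were all transcribed, with *PFKP* foremost. Of their summed FPKM, 373 in replicate 1 and 372 in replicate 2, *PFKP* made up 65.5% and 66.4%, *PFKL* 29.0% and 28.8%, and *PFKM* 5.50% and 4.75%. The log2 ratio of *PFKL* to *PFKP* was -1.17 and -1.20 (-1.18 ± 0.0179). That of *PFKL* to *PFKM* was 2.34 and 2.54 (2.44 ± 0.138), and that of *PFKM* to *PFKP* was -3.51 and -3.73 (-3.62 ± 0.156). Each ratio had the same sign in both libraries, and kept it with protein-coding transcripts or the largest transcript only. A change of unit or pseudocount could not change a sign. The SDs come from 2 libraries that may be technical repeats, so they allow no test of a ratio.

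Some reads may be shared with copies or overlapping genes. Of 6 annotated pseudogenes named after *TPI1* or *ALDOA*, the highest was *TPI1P1*, at an FPKM of 4.84 and 4.56, and the next, *TPI1P2*, had 0.172 and 0.123. *SENP1*, on the opposite strand, shares exon bases with *PFKM* and stood at 7.06 and 6.69, and *SPSB2* likewise with *TPI1*, at 6.77 and 5.72. Strand use in the authors' estimate is not given in the sources used here, so reads from the shared bases of such pairs may not have been kept apart. How far this affects the levels of *PFKM* and *TPI1* was not measured. An antisense gene over the end of *ALDOC*, ENSG00000265168, was listed at 0 in both libraries.

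Start sites were compared by joining the annotated starts of a gene that lie within 500 bp of the next into groups, and by summing the FPKM of the transcripts of each group. *TPI1* used a single group for 98.8% and 98.6% of its level in replicates 1 and 2, and a transcript that starts at position 6976695 of chromosome 12 alone gave 98.5% and 98.3%. *GPI* also used mainly 1 group, with 98.0% and 97.3% from starts between 34855645 and 34856284 of chromosome 19. Within that group the libraries differed. The start at 34856284 gave 41.3% in replicate 1 and 1.31% in replicate 2, and the start at 34855645 gave 35.1% and 43.0%. Transcripts from starts upstream, between 34850385 and 34850639, gave *GPI* an FPKM of only 0.188 and 0.376. *PFKL* had 72.6% and 74.4% from starts between 45719934 and 45719989 of chromosome 21. Most of the rest of *PFKL* was assigned to retained-intron transcripts. All its retained-intron transcripts made up 28.3% and 26.3% of its FPKM, which includes ENST00000466134, from the main starts, at 3.16% and 2.33%.

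*ALDOA* and *PFKM* divided their level among several groups. For *ALDOA*, starts between 30077083 and 30077508 of chromosome 16 gave 47.4% and 52.6%, and starts between 30075485 and 30076060 gave 42.1% and 36.8%. A distal group, between 30064444 and 30064659, gave 6.49% and 6.87%. Its transcripts belong to *ALDOA* in the expression tables and to ENSG00000285043, which shares exons with it, in the GRCh37 annotation. For *PFKM*, starts between 48516357 and 48516503 of chromosome 12 gave 52.7% and 43.9%, the most upstream group, between 48498922 and 48500171, gave 22.8% and 27.2%, and the group between 48513047 and 48513570 gave 16.1% and 22.2%. For both genes the group with the highest share was the same in the 2 libraries. In *PFKP* the starts at 3109740 and 3109864 of chromosome 10 gave 53.4% in replicate 1 and 69.8% in replicate 2, while a start at 3110678 gave 26.4% and 0.611%. The split of *PFKP* between these starts thus differed between the libraries far more than its total did. A retained-intron transcript that starts at 3171199 gave a further 13.2% and 17.6%. The group of *ALDOC* starts, between 26902932 and 26903966 of chromosome 17, held all of its low level.

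**Figure D3:**
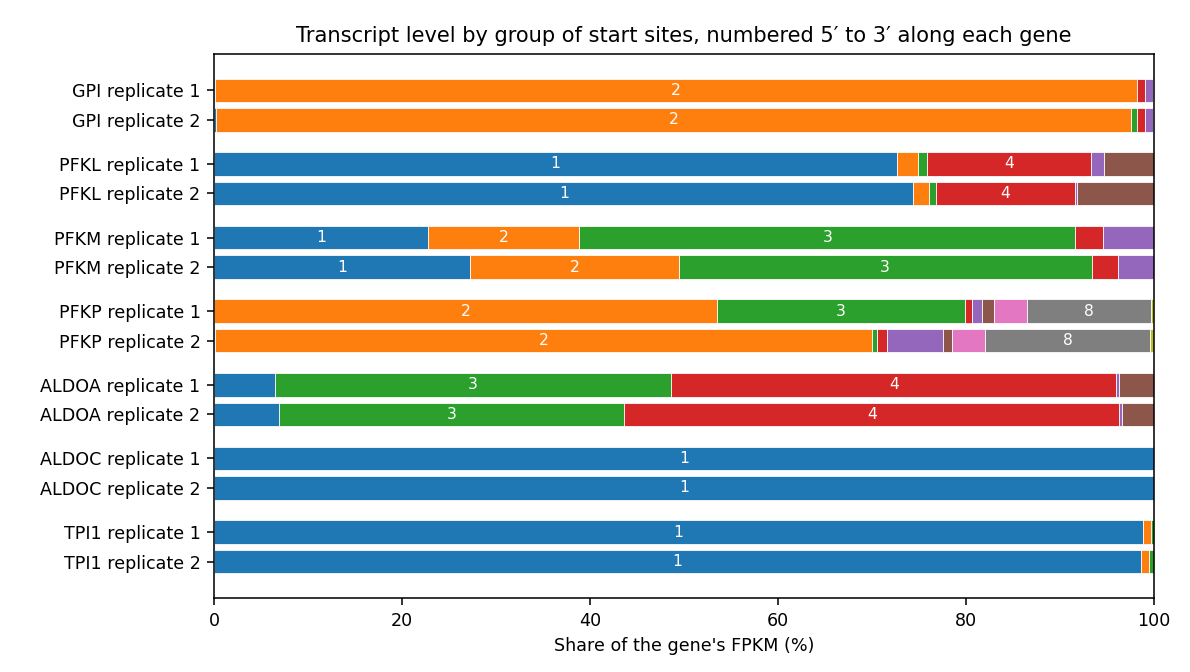
Stacked bars give the share of a gene's FPKM (horizontal axis, percent) from each group of start sites, numbered from 5′ to 3′ along the gene, in each RNA-seq library. *TPI1* and *GPI* draw on 1 group, *ALDOA* and *PFKM* on several, and in *PFKP* the third group holds 26.4% in replicate 1 and 0.611% in replicate 2.

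HIF1α peaks lay at the promoters of most of these genes. In replicate 1, *GPI*, *PFKL*, *PFKP*, *ALDOA* and *TPI1* had a promoter peak, 5 of 7, and *PFKM* and *ALDOC* had none. Of all 11726 protein-coding genes whose mean FPKM was 1 or more, 8.60% had one, and 6 of the 7 genes, all but *ALDOC*, belong to that set. The 5 genes with such a peak are those with an FPKM above 100, a class in which 14.0% of genes had one. In replicate 2, *GPI*, *PFKP*, *ALDOA* and *TPI1* had a promoter peak, 4 of 7, against 20.0% of the same set and 49.0% of the class above 100. The same 4 had one in both replicates, against 2.87%. For *PFKP* and *TPI1* the peaks of the replicates were at different places. When the promoter peaks had to overlap, an alternative chosen after seeing the data, *GPI* and *ALDOA* were left, against 1.48% of the set. Of the 251 protein-coding genes with a mean FPKM at or above that of *GPI*, 15 had overlapping promoter peaks, *GPI* and *ALDOA* among them. Overlapping peaks anywhere in the gene or within 10 kb were likewise found for *GPI* and *ALDOA*, 2 of 7 genes, against 2.49%. No share by level is given for this count or for a promoter peak in both replicates. With only the start site of the transcript with the highest mean FPKM in place of all start sites, replicate 1 had 4 genes, without *GPI*, against 6.97% of the 11452 genes of the set with such a start on GRCh37. Replicate 2 then had *ALDOA* alone, against 8.59%, as had both replicates together, against 1.55%. With a window of 3 kb, *ALDOC* joined the genes with a replicate 2 peak, 5 of 7, against 32.1%, while the counts stayed at 5 in replicate 1, against 9.47%, and 4 in both, against 4.21%. With a window of 10 kb, all 7 genes had a replicate 2 peak, against 50.3%. The same 5 genes as at 1 kb had one in replicate 1, against 11.8%, and thus in both, against 7.57%. With only peaks that have under 50% of their bases in exons, also chosen after seeing the data, 4 genes had a promoter peak in replicate 1, against 4.35%. *ALDOA* and *PFKP* had one in replicate 2, against 1.42%, and in both, against 0.443%. The *PFKP* promoter peaks of replicate 2 lie near the start of a retained-intron transcript, at 3171199, and not near the main start. The one that passed this filter is in intron 16, centred 845 bp from that start and 60614 bp from the main start. The *TPI1* promoter peaks of replicate 2 lie in an exon of the neighbouring *USP5* and in the last exon of *TPI1*. Neither touched 1 kb on either side of its main start.

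**Figure D4:**
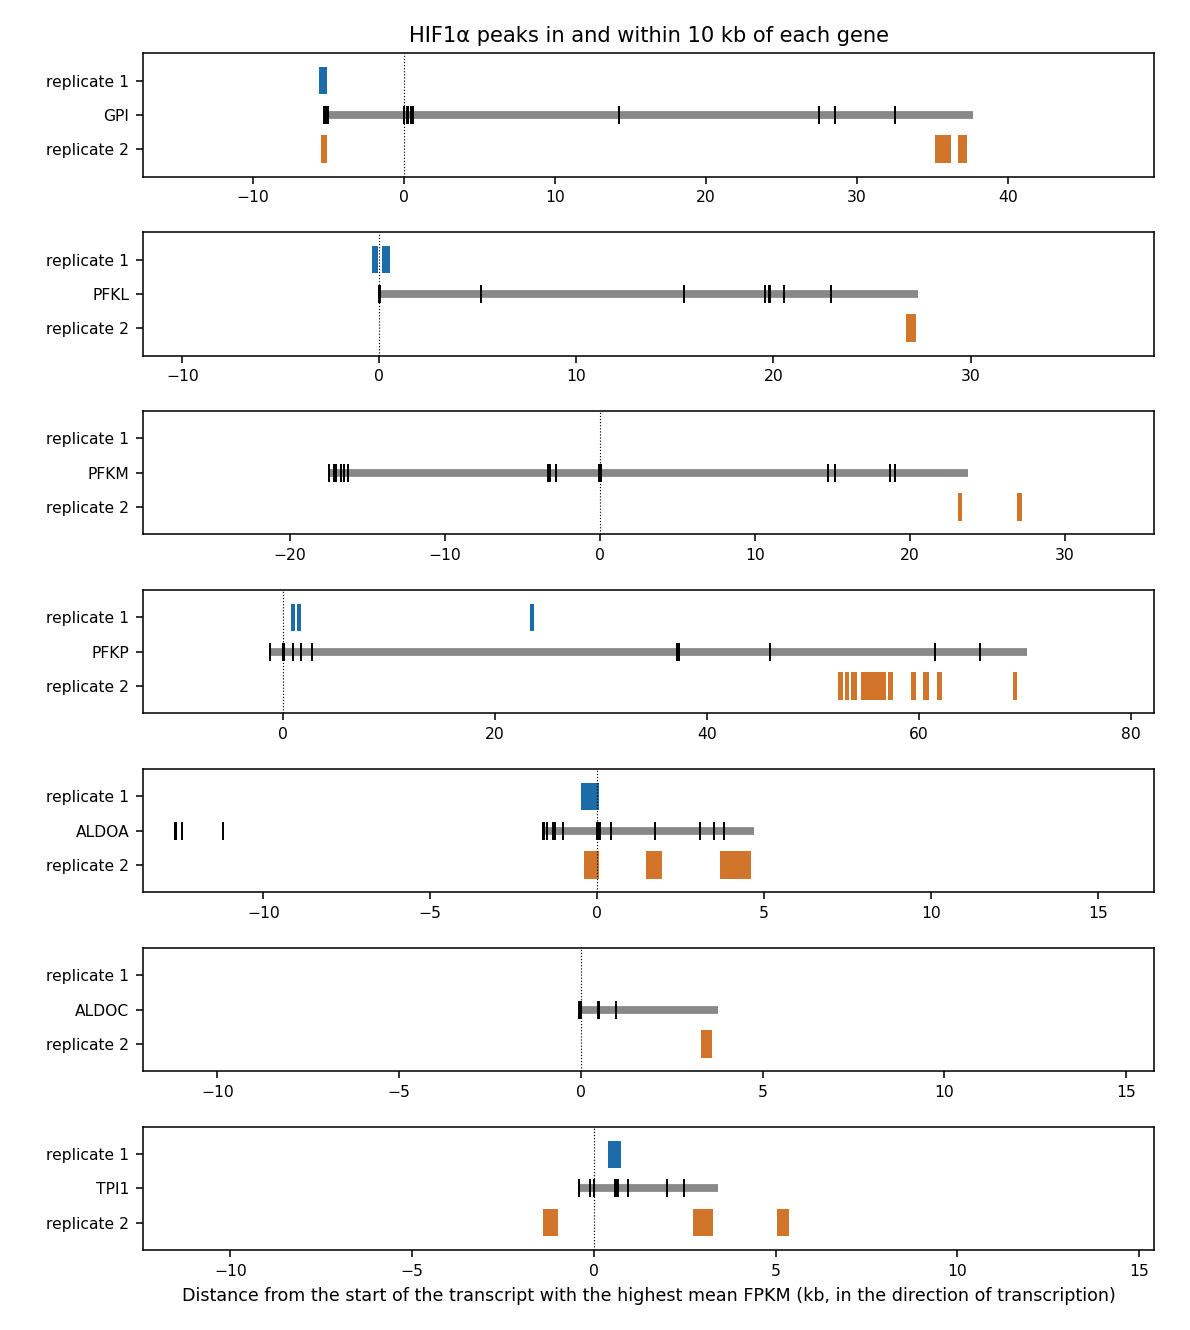
Each panel shows the gene body (grey), its annotated start sites (ticks) and the HIF1α peaks of replicate 1 (blue) and replicate 2 (orange) by distance in kb from the start of the transcript with the highest mean FPKM (dotted line); each panel has its own scale, and the narrowest peaks are drawn at a minimum width, and the distal *ALDOA* starts lie outside the gene body. Peaks of both replicates overlap at *GPI* and *ALDOA*, *PFKM* and *ALDOC* have peaks of replicate 2 only, and replicate 2 peaks cluster in the downstream part of *PFKP*.

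The printed sequences are the middle of the replicate 1 promoter peaks that hold a core, up to 75 bases on either side of the centre with annotated UTR bases left out, and for contrast the upstream window of *ALDOC*, which had no replicate 1 peak. All are on GRCh37, on the strand of the gene, 5′ to 3′, with ACGTG or GCGTG on either strand in capitals. CACGTG reads the same on both strands and counts as 2 cores. The positions are chr19:34850222-34850372 for *GPI*, chr21:45719646-45719796 and chr21:45720198-45720348 for *PFKL*, chr10:3111182-3111332 for *PFKP*, chr16:30076806-30076956 for *ALDOA* and chr12:6977184-6977263 for *TPI1*, all on the plus strand, and chr17:26903967-26904163 on the minus strand for *ALDOC*.
GPI peak: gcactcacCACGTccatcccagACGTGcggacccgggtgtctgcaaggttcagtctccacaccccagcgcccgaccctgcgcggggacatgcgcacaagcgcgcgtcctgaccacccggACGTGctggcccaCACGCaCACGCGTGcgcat
PFKL upstream peak: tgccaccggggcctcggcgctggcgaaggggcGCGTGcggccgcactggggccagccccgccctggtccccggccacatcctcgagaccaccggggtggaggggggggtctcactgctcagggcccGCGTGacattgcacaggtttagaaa
PFKL intron peak: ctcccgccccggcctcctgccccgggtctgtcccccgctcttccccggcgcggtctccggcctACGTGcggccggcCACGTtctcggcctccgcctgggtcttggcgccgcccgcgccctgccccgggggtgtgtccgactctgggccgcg
PFKP peak: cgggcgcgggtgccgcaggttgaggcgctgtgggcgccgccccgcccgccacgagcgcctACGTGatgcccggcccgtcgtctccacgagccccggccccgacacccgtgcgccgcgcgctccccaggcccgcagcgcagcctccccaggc
ALDOA peak: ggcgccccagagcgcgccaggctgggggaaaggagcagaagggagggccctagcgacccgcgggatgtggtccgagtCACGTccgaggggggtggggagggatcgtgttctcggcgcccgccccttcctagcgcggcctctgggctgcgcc
TPI1 peak: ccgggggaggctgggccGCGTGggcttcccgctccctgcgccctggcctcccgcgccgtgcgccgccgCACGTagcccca
ALDOC upstream window, no peak: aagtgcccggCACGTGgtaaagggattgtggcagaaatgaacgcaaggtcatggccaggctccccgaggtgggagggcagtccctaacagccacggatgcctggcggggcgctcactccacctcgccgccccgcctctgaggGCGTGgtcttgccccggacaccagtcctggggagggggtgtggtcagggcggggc

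A core lay within 5 bp of the centre of the *PFKL* intron peak, the *ALDOA* peak and the *TPI1* peak. No share of all replicate 1 peaks with a core that close is given, so this describes position only. Of the 7 promoter peaks of replicate 1 at these genes, 6 held a core within 100 bp of the centre (85.7%, Wilson 95% interval 48.7 to 97.4), near the 86.2% of all replicate 1 peaks and the 92.5% of the 1075 that lie within 1 kb of any annotated start. ACGTG was present in 6 of the 7, against 75.3% and 79.3%. Of the 8 promoter peaks of replicate 2, all held a core somewhere, against 54.9% of the 6075 replicate 2 peaks within 1 kb of any annotated start and 48.8% of all, and 5 held one within 100 bp of the centre, against 31.3% and 27.1%. A match of these letters is a description and not a measured binding site.

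**Figure D5:**
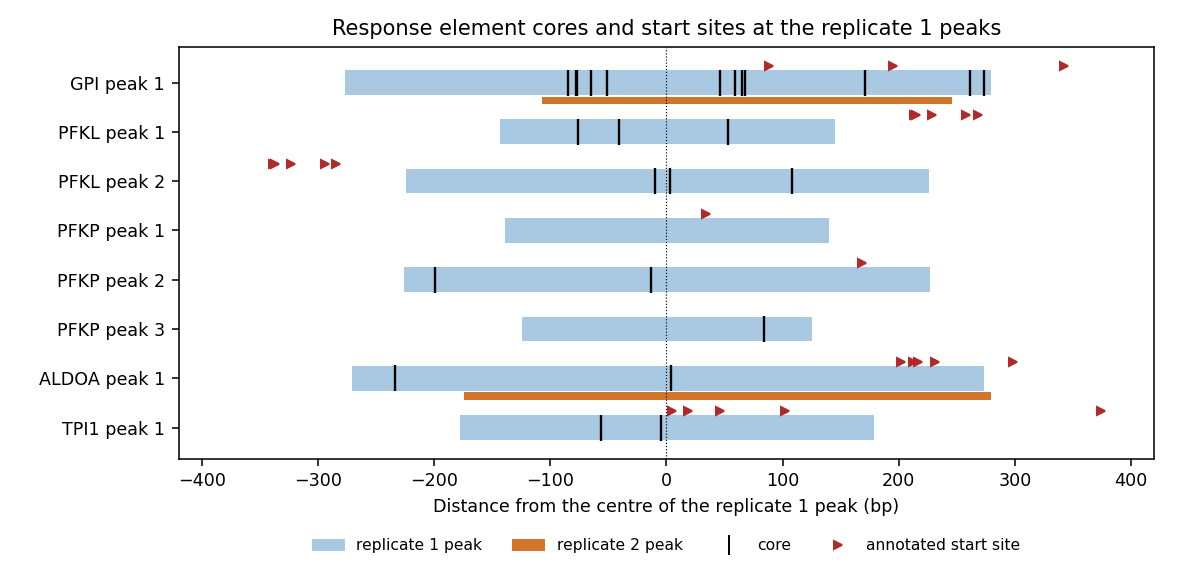
Each replicate 1 peak at or near the genes is drawn by distance in bp from its centre (horizontal axis), with cores as black ticks, annotated start sites as red arrowheads, and the overlapping replicate 2 peak, where there is one, as a thin orange bar. Cores lie within 5 bp of the centre at *ALDOA*, *TPI1* and the second *PFKL* peak, the first *PFKP* peak has none, and the *GPI* peak holds 12.

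At *GPI* the peaks of both replicates lay upstream of the starts that carry its level. The replicate 1 peak, chr19:34850020-34850575, had its centre 5348 bp upstream of the start of the main transcript, at 34855645, and 88 bp upstream of the minor start at 34850385, outside the gene body. The replicate 2 peak, chr19:34850190-34850542, lay wholly within it. The replicate 1 peak held 12 cores, more than any other replicate 1 peak at these genes, and 10 of them fell in the overlap. An antisense gene, ENSG00000267219, has exon bases in both peaks, and its start site was the one nearest to the replicate 1 centre, 20 bp away. Replicate 2 had 2 further peaks in the last exon of *GPI*, exon 19, chr19:34890799-34891876 and chr19:34892328-34892902, with every base in exons.

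The *PFKL* start site was flanked by peaks of replicate 1. The upstream peak, chr21:45719578-45719865, was centred 215 bp before the main start, and the other, chr21:45720049-45720498, was centred 337 bp after it, in intron 1. Neither spanned the start, and each held 3 cores. Replicate 2 had no peak there. Its only peak at *PFKL*, chr21:45746650-45747178, lay in exon 22, the last exon, 26978 bp downstream of the main start.

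*PFKP* had 2 replicate 1 promoter peaks, both downstream of the main start and in intron 1 of the main transcript. The centres were 904 bp (chr10:3110505-3110783) and 1517 bp (chr10:3111031-3111483) from that start, so that both lay farther from it than the *PFKL* peaks lay from theirs. The former spans the start at 3110678, whose share differed between the RNA-seq libraries, and held 0 cores. The latter spans the start at 3111425, with an FPKM of 1.96 and 2.38, and held 2 cores. Another peak, chr10:3133092-3133340, lay in intron 2 with 1 core. Replicate 2 had 0 peaks at these places and 9 others farther downstream. Of these, 7 had their centre outside any exon in intron 16 of the main transcript, from 3162112 to 3170639, a span of 8528 bp of which they covered 5168 bp. The widest, chr10:3164226-3166611, was 2386 bp long with no exon base and 14 cores, and was among the 21 widest of 2755 replicate 2 peaks without an exon base, whose median width was 295 bp. The first of the 7, chr10:3162112-3162543, had 28.9% of its bases in exons and held 0 cores. The 6 peaks without an exon base held 20 cores, or 4.22 per kb, against 1.71 per kb in all replicate 2 peaks without an exon base. Most of these cores lay in the widest peak, and the other 5 peaks held 6, or 2.55 per kb. The retained-intron transcript that starts at 3171199 begins downstream of them, 845 bp from the centre of the nearest, and a further peak, chr10:3171449-3171844, lay within its exon. The last of the 9, chr10:3178633-3178933, was in exon 22.

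No replicate 1 peak lay near *PFKM*. The nearest on the chromosome was centred 877208 bp from any of its starts. In replicate 2 a peak at chr12:48539530-48539794 lay in its last exon, exon 22, and another, chr12:48543309-48543680, in an exon of the neighbouring gene *ASB8*. Neither held a core. In replicate 1 the phosphofructokinase genes thus differed in peak position as well as level. Both isozymes with an FPKM above 100 had replicate 1 peaks within 1 kb of the main start, and *PFKM* had none. Replicate 2 showed no such difference at the main starts. Its nearest peak centres lay 26978 bp (*PFKL*), 52587 bp (*PFKP*) and 23232 bp (*PFKM*) away.

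At *ALDOA* the replicates had overlapping peaks at the start group with the highest share. The replicate 1 peak, chr16:30076610-30077153, was centred 212 bp upstream of the main start at 30077093 and spans it, and the replicate 2 peak, chr16:30076707-30077159, was centred 160 bp upstream. They shared 447 bp, 82.2% of the former and 98.7% of the latter. An ACGTG core lay 4 bp from the replicate 1 centre and is the only core in the shared stretch. The other large start group, whose main start is at 30075506, lay 1375 bp upstream of the centre, and the distal starts had no peak of either replicate within 10 kb. Replicate 2 had 2 more peaks in *ALDOA*, chr16:30078569-30079033 and chr16:30080771-30081703, with 100% and 83.3% of their bases in exons.

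The replicate 1 peak nearest to *ALDOC* was centred 326036 bp from any of its start sites. Its replicate 2 peak, chr17:26900297-26900606, lay wholly in exon 9, the last exon, where the antisense gene ENSG00000265168 also has exon bases, and held 0 cores. Of protein-coding genes with a mean FPKM below 1, 10.6% had such a replicate 2 exon peak. The bases upstream of *ALDOC* held cores. In RefSeq promoter windows on GRCh38.p14, 250 bases before to 50 after a start, *ALDOC* had 5, a number or more reached by 1.98% of 35116 windows, and 48.4% of windows held at least 1. All 7 genes matched this table, with 19 windows in all, of which 11 held a core. *ALDOA* had 3 windows with 1 or 2 cores each, *TPI1* had 0 in the window of its upstream start and 2 in the other, and *GPI* and *PFKL* had 1 each. Of the windows of *PFKP*, the most upstream had 0 and the most downstream 3, and *PFKM* had at most 1 in any window. Of *ALDOA* and *ALDOC*, the gene with the most cores in a promoter window was the one with neither a replicate 1 peak nor a level above 1. A link of cores with peaks or level was not tested.

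*TPI1* had a replicate 1 peak, chr12:6977081-6977437, in intron 1 of its main transcript, centred 564 bp downstream of the main start. It overlaps a group of minor starts between 6977264 and 6977633, which gave 0.902% and 0.829% of the *TPI1* level, and its ACGTG core lay 5 bp from the centre. Replicate 2 had 0 peaks there. Its 3 peaks were in an exon of the neighbouring *USP5* (chr12:6975284-6975694), in the last exon of *TPI1* (chr12:6979424-6979981) and in an exon of *SPSB2* (chr12:6981731-6982058), and each had over 95% of its bases in exons. The peaks in *USP5* and in the last exon of *TPI1* are those counted as its replicate 2 promoter peaks. Their centres lay 794 bp and 521 bp from the nearest *TPI1* start. For the latter peak that is the start of a retained-intron transcript, at 6979181.

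Taken by gene, all 7 had a replicate 2 peak over at least 1 of their exons, against 50.3% of the protein-coding genes whose mean FPKM was 1 or more, a set that leaves out *ALDOC*, and 76.8% of those of 100 or more. Of the 22 replicate 2 peaks at or near them, 12 had over 95% of their bases in exons, against 0 of the 8 replicate 1 peaks, and the shares in the whole lists were 70.9% and 12.9%. Exons held 54.4% of the bases of the 22 peaks, less than the 85.7% of all replicate 2 peaks. The peaks with no exon base were 6, all in intron 16 of *PFKP*, and the peak at the *ALDOA* start had 17.4% of its bases in exons.

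The other genes of the pathway were read in the same way. Of 26 further genes for glucose entry, glycolysis and lactate output, 20 reached a mean FPKM of 1. Promoter peaks were found for 13 of the 26 in each replicate, all among these 20, against 8.60% of the protein-coding genes whose mean FPKM was 1 or more in replicate 1 and 20.0% in replicate 2. For genes with a mean FPKM of 100 or more, among them *GAPDH* and *ENO1*, the shares with a promoter peak were 14.0% and 49.0%. Both replicates had one for 11 genes, against 2.87%, and 9 had overlapping peaks of both replicates in the gene or within 10 kb, against 2.49%. No share by level is given for these counts. The median FPKM of the 26 was 44.7. Downstream of *TPI1*, *GAPDH* had the highest level, 7670 and 7433, and *PGK1*, *PGAM1*, *ENO1*, *PKM* and *LDHA* each had promoter peaks in both replicates. *PFKFB3* and *PFKFB4*, whose products make the activator of phosphofructokinase, stood at 53.4 and 50.1, and at 42.7 and 39.6, with overlapping peaks of both replicates. Of 13 genes of gluconeogenesis and of triose, fructose or pentose side routes, 8 reached a mean FPKM of 1. Of these 8, *TIGAR* and *GPD2* had a promoter peak in replicate 1, *PCK2* had one in replicate 2, and 0 had one in both, beside the same shares of 8.60%, 20.0% and 2.87%, so the counts in replicate 2 and in both are near those of all genes. Only *G6PC3* of the 8 had overlapping peaks of both replicates, away from its promoter, against 2.49%. *FBP1*, whose product reverses the phosphofructokinase step, was listed at 0, and the muscle isozyme *FBP2* stood at 0.151 and 0.215.

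A rule on level and peaks took the genes whose mean FPKM reached the median of the 7 and that had overlapping promoter peaks in both replicates. Of 251 protein-coding genes at that level, 15 met it, and the 5 with the highest level were *GAPDH*, *ENO1*, *PGAM1*, *LDHA* and *MIF*. *ALDOA* was 7 in this order, and *GPI*, which is itself the median, was the last. With 2 libraries of a single treatment, likeness over conditions could not be measured.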

How the data were processed

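Peaks were deposited as positions, a list for each ChIP-seq replicate. The authors aligned reads to hg19 with Bowtie2 and called peaks with MACS2; its version, threshold and control library are not given in the sources used here, and the lists hold no score, so their depth is unknown and Wilson intervals cover counting error only. For RNA-seq, the authors mapped reads with HISAT2 and estimated coverage, FPKM and TPM per transcript with StringTie 1.3.3 on GENCODE 27, and these were deposited in the GTF tables. Their coordinates are those of GRCh38 although the methods name hg19, so peaks and expression were joined by Ensembl identifier, and positions come from GENCODE 44 mapped to GRCh37. A start site on GRCh37 was found for 96.9% of 200243 transcripts. Copies of genes on the Y pseudoautosomal region were left out.

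A gene's FPKM is the sum over its transcripts. Log2 ratios used a pseudocount of 1 FPKM. Peaks overlapped when they shared 1 bp. The main transcript is that with the highest mean FPKM. Promoter sequences come from RefSeq. A planned comparison of the isozyme proteins was not made, and no protein sequence was used here. Named genes were the members, fixed lists of the pathway, opposing genes and markers, copies and overlapping genes, genes nearest to a peak, and the 5 of highest level among those that met a rule on level and peaks. A gene of the fixed lists is not reported here and was left out of their counts and sums. The members and lists were chosen with earlier results of these data known. Alternatives covered windows, start sites, overlap, unit, transcripts, pseudocount, minimum level and left-out replicates. The code was tested on simulated data. Sequences were read with pysam 0.24.0 and samtools 1.23.1, intervals came from scipy 1.17.1, and tables and plots were made in Python 3.11.15 by means of pandas 2.3.3, numpy 2.4.6 and matplotlib 3.10.9.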

Additional observations from a re-analysis of the deposited data

How the results depend on the processing

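No paired analysis was possible because every sample has the same treatment and no result comes from a test. The count of members with a promoter peak in replicate 1 was 5 in every setting but the main start site alone and peaks with under 50% of their bases in exons, with 4 each. In replicate 2, of 4 as reported, it was 5 with a window of 3 kb, 7 with a window of 10 kb, 1 with the main start site alone and 2 with peaks with under 50% of their bases in exons. The count in both replicates, 4, was 5 with a window of 10 kb, 1 with the main start site alone, 2 with those peaks and 2 when the promoter peaks had to overlap; without replicate 1 or replicate 2 it was 4 to 5. The 2 members with overlapping peaks stayed at 2 in each setting. The cause of these shifts was not tested.

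No log2 ratio between isozymes reversed, and a change of unit or pseudocount could not reverse one. That of *ALDOA* to *ALDOC*, 8.34, was 7.99 with protein-coding transcripts, 7.28 with the largest transcript, 9.55 with a pseudocount of 0.1 and 9.78 with none. It was 9.08 with TPM and 8.52 with scaled coverage. Both units are FPKM multiplied by a constant within a library, so these 2 values differ from 8.34 only through the added pseudocount. With protein-coding transcripts *PFKL* to *PFKM* was 2.17 and *PFKL* to *PFKP* was -1.49. With the largest transcript *PFKL* to *PFKM* was 2.85, *PFKL* to *PFKP* was -1.04 and *PFKM* to *PFKP* was -3.88. With 2 libraries, leaving out either moves a mean by a fixed part of its SD and says nothing of stability. The largest transcript here is the one with the highest mean FPKM. TPM and scaled coverage could not change the order of the 7 levels, being FPKM multiplied by a constant within a library. With protein-coding transcripts the order held in both libraries. With the largest transcript it held in replicate 2 only. In replicate 1 that of *PFKL* (72.4) lay above that of *GPI* (60.7), and so did their means (72.1 and 67.5). Another *GPI* transcript was higher in replicate 1, at 71.4. The background shares were 5.49%, 14.0% and 1.79% with no minimum level and 10.5%, 27.9% and 4.11% with a minimum of 10. With cores within 100 bp of the centre, or with ACGTG alone, 62.5% of the replicate 2 promoter peaks held a core, against 100%. With 2 libraries an SD is imprecise, and the depth behind the peaks is unknown.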

Other observations

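Single transcripts of *GPI*, *PFKP*, *PFKM*, *PFKL* and *ALDOA* differed between the libraries more than the totals of these genes. In *GPI*, whose total was 173 and 172, the FPKM of the transcript ENST00000586425 was 71.4 and 2.25 in replicates 1 and 2, and that of ENST00000356487, from a nearby start, was 26.7 and 46.9. In *PFKP*, with totals of 244 and 247, ENST00000381075 had 64.5 and 1.51, and ENST00000381125 had 131 and 170. The main transcript of *PFKM*, ENST00000547587, had 10.8 and 7.74, with totals of 20.5 and 17.6. In *PFKL*, with totals of 108 and 107, the retained-intron transcript ENST00000467315 had 17.0 and 12.7, and in *ALDOA*, with totals of 531 and 496, ENST00000569545 gave 25.2% and 19.2% of the total. Their main transcripts were closer between the libraries, ENST00000349048 of *PFKL* at 72.4 and 71.7 and ENST00000569798 of *ALDOA* at 211 and 213. The main transcript of *TPI1*, ENST00000396705, gave 98.5% and 98.3% of its total. With 1 pair of libraries, the part of the authors' estimate in this was not tested, and levels by transcript or start site carry that limit.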
